A study of Rattus norvegicus with 24 samples.

Results

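Expression of 6 genes of the excitatory postsynapse was followed in rat medial prefrontal cortex: the NMDA receptor subunits Grin1, Grin2a and Grin2b, the AMPA receptor subunit Gria1, the scaffold Dlg4 and the kinase Camk2a. The members were chosen by gene name and were found by Ensembl ID among the 32883 genes of each deposited table. In the order above the IDs are ENSRNOG00000011726, ENSRNOG00000033942, ENSRNOG00000008766, ENSRNOG00000045816, ENSRNOG00000018526 and ENSRNOG00000018712. The tables pair no ID with a name, and the reference gene table used here carries 0 Ensembl IDs in 47357 rows, so the pairing of these IDs with their symbols comes from the list of members and was not checked against a reference. All 6 genes were among the 14930 that passed the filter on low counts.

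The libraries come from bulk tissue of both hemispheres of male and female Sprague Dawley rats at postnatal day 45, born after induction with oxytocin, the peptide hormone that drives labour, or after saline as the control. There are 24 libraries in 4 groups of 6, named here by their titles: oxytocin male, saline male, oxytocin female and saline female. The design text gives 6 animals per sex and treatment, and the labels name no litter, dam or dose, so p-values measure the spread between these libraries only and littermates, if any, enter as independent. Libraries held 15.9 to 24.3 M estimated reads. Group means ran from 17.4 ± 0.888 M reads in oxytocin female to 20.2 ± 2.18 M reads in saline female libraries (SD, n = 6 per group). In 24 of 24 libraries the name of the deposited file gives the other sex and the other treatment. In addition, 4 genes had at most 1 read in every titled male and at least 100 reads in every titled female library. With the sexes exchanged, 0 genes met these limits and 1 met a limit of 5 reads in place of 1. The file names and these read counts put the titled sexes in doubt, and the file names also put the titled treatments in doubt. Groups are therefore called titled throughout, and oxytocin, saline, male or female without that word also follow the titles. If the file names were right, each treatment difference within a titled sex would belong to the other sex with the opposite sign, the averaged treatment and sex differences would turn sign, and the interaction would keep its sign. The labelled tissue could not be checked against cell type markers, since no marker could be matched to an ID.

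Glutamate released at cortical synapses opens AMPA receptors, which carry most of the fast current, and NMDA receptors, which also admit calcium once the membrane is depolarised. Every NMDA receptor needs GluN1, the product of Grin1, and is completed by GluN2 subunits, in cortex mainly GluN2A and GluN2B, the products of Grin2a and Grin2b. GluN2B dominates early in life and the share of GluN2A grows as cortex matures, which shortens the synaptic current. PSD-95, the product of Dlg4, anchors both kinds of receptor in the postsynaptic density, where CaMKII alpha, the product of Camk2a, binds GluN2B and phosphorylates GluA1, the product of Gria1, during long-term potentiation.

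Upstream sequence was at hand for 3 of the 6 genes, Grin1, Dlg4 and Camk2a, in a RefSeq table of the GRCr8 assembly, which is not the build of the deposited files. That table held no other member, so availability set the choice. These 3 are also the members most abundant per length. The 250 bases before each annotated start were searched on both strands for the cyclic AMP response element TGACGTCA, its core TGACG, which the full element contains, the GC box GGGCGG and the TATA box TATAAA. The core is in capitals, written CGTCA where it lies on the other strand. For Grin1 the whole stretch (chr3:28528755-28529004, minus strand) is given, and for Camk2a 30 bases around each core (chr18:56649018-56649047 and chr18:56649076-56649105, plus strand).
Grin1: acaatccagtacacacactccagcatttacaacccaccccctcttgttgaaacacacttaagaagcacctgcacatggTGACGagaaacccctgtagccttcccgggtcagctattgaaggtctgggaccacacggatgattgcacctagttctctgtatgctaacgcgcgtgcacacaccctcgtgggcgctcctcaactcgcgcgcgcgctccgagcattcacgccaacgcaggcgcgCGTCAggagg
Camk2a, first core: ggacctggatgcTGACGaaggctcgcgagg
Camk2a, second core: aagccccaagctCGTCAatcaagctggttc
Grin1 and Camk2a each held 2 cores and Dlg4 held 0. None of the 3 stretches held any of the other motifs. Of all 33469 upstream stretches of the same length, 18.2% held the core, 1.59% the full element, 30.5% the GC box and 12.9% the TATA box. A match is a description of letters and not a binding site.

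Per unit of length, the genes stood in a fixed order. In the authors' deposited TPM values, transcripts scaled by gene length and library total, Camk2a was at 1245 ± 130 TPM (mean ± SD over all 24 libraries), Dlg4 at 519 ± 28.6, Grin1 at 339 ± 18.1, Gria1 at 90.4 ± 10.6, Grin2b at 56.8 ± 6.11 and Grin2a at 33.3 ± 7.55 TPM. In 24 of 24 libraries all neighbours in this order kept their places. The ranges of Camk2a, Dlg4, Grin1 and Gria1 did not touch, while those of Gria1 and Grin2b, and of Grin2b and Grin2a, overlapped between libraries. By mean TPM, Camk2a ranked at place 68 of the 14930 tested genes, Dlg4 at 213 and Grin1 at 381, and Grin2a at 4441. The obligatory subunit Grin1 was 3.19 to 4.99 times the sum of Grin2a and Grin2b in reads per effective length, with a median of 3.76 over the 24 libraries. Camk2a was 1.97 to 2.80 times Dlg4. Order and ratios between genes rest on the lengths in the deposited tables, about 1492 bases for Camk2a and 5261 for Grin2b. These lengths were not checked.

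Differences between groups were tested on the counts. All levels from here on are CPM, reads scaled to the library total with TMM factors. They do not correct for length and are compared only within a gene. Fold changes are log2 values from edgeR's quasi-likelihood test over all 14930 genes, with a Benjamini-Hochberg adjusted p. The standard error (SE) was derived from the fold change and the F statistic of that test. The 95% interval was built from this SE and the t distribution. A gene is called at an adjusted p of at most 0.05.

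Grin1 was the member with the steadiest difference between treatments, a small one. Its level in oxytocin male libraries ran from 905 over a median of 964 to 1033 CPM, and in saline male libraries from 888 over 898 to 941 CPM. All 6 oxytocin male libraries lay above the saline male median and 4 of them above every saline male library. In titled females it ran from 946 over 956 to 996 CPM in oxytocin and from 854 over 906 to 1008 CPM in saline libraries. There too all 6 oxytocin libraries lay above the saline median, but none lay above saline female 2, the highest library of its group. The log2 fold change was 0.09 in titled males (SE 0.04, interval 0.01 to 0.16, adjusted p = 0.341), 0.08 in titled females (SE 0.04, interval 0.002 to 0.15, adjusted p = 0.389) and 0.08 on average (SE 0.03, interval 0.03 to 0.14, unadjusted p = 0.00356, adjusted p = 0.114). Grin1 was thus not called, and the groups overlapped in each comparison. Without saline female 2 the averaged difference was 0.10 and passed the threshold (adjusted p = 0.0260), while the number of all tested genes called rose from 54 to 334. Between titled sexes Grin1 differed by −0.003 on the log2 scale (interval −0.06 to 0.05).

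Grin2a, the subunit linked to mature and faster NMDA currents, had the widest spread and the largest point estimates for treatment and titled sex. In oxytocin male libraries it ran from 86.5 over 104 to 115 CPM, and in saline male libraries from 71.8 over 80.1 to 92.4 CPM. Of the oxytocin male libraries 4 lay above every saline male library, and numbers 5 and 6 fell into the saline range. In oxytocin female libraries it ran from 63.6 over 86.6 to 112 CPM. In saline female libraries it ran from 41.6 over 78.4 to 105 CPM, with saline female 1 lowest of all 24. These 2 groups overlapped over most of their range. The log2 fold change was 0.33 in titled males (SE 0.17, interval −0.02 to 0.68, adjusted p = 0.495), 0.21 in titled females (SE 0.17, interval −0.15 to 0.56, adjusted p = 0.650) and 0.27 on average (SE 0.12, interval 0.02 to 0.51, adjusted p = 0.273). In titled females the value was 0.08 to 0.32 with 1 library left out, the lowest without saline female 1. None of these was called, and both intervals within a titled sex include 0.

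Grin2b, the subunit that prevails early in development, showed smaller differences. It ran from 183 over 191 to 222 CPM in oxytocin male and from 169 over 185 to 197 CPM in saline male libraries. In titled females it ran from 148 over 183 to 195 CPM in oxytocin and from 154 over 178 to 207 CPM in saline libraries. The groups overlapped in both titled sexes. The log2 fold change was 0.09 (SE 0.07, interval −0.06 to 0.24, adjusted p = 0.698) in titled males and −0.01 (SE 0.07, interval −0.16 to 0.14, adjusted p = 0.966) in titled females.

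Gria1, the AMPA receptor subunit that is delivered to synapses during potentiation, had estimates of opposite sign in the titled sexes. It ran from 125 over 134 to 138 CPM in oxytocin male and from 129 over 135 to 155 CPM in saline male libraries. It ran from 118 over 134 to 149 CPM in oxytocin female and from 101 over 119 to 150.3 CPM in saline female libraries. The saline female group stood lowest by its median, with saline female 6 just above the top of the oxytocin female range. The log2 fold change was −0.06 (SE 0.07, interval −0.20 to 0.09, adjusted p = 0.846) in titled males and 0.15 (SE 0.07, interval −0.001 to 0.30, adjusted p = 0.405) in titled females. The difference between them, the interaction of treatment and titled sex, was −0.20 (SE 0.10, interval −0.41 to 0.01, unadjusted p = 0.0577, adjusted p = 0.686) and was not called.

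Dlg4, the scaffold gene, was the only member lower in oxytocin in both titled sexes by its estimate, with no call. It ran from 969 over 1009.5 to 1033 CPM in oxytocin male and from 992 over 1008 to 1171 CPM in saline male libraries, where saline male 6 stood alone at the top. In titled females it ran from 902 over 958 to 982 CPM in oxytocin and from 891 over 992 to 1082 CPM in saline libraries. The log2 fold change was −0.04 (SE 0.04, interval −0.13 to 0.05, adjusted p = 0.795) and −0.05 (SE 0.04, interval −0.13 to 0.04, adjusted p = 0.681). Between titled sexes Dlg4 was higher in titled males by 0.07 (SE 0.03, interval 0.01 to 0.14, unadjusted p = 0.0197, adjusted p = 0.388). All 12 titled male libraries lay above the median of the titled female libraries, yet the titled sexes overlapped and the difference was not called.

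Camk2a, which encodes the most abundant kinase of the postsynaptic density, ran from 1096 over 1203 to 1257 CPM in oxytocin male and from 1024 over 1076 to 1193 CPM in saline male libraries. All 6 oxytocin male libraries lay above the saline male median and 3 above every saline male library. In titled females it ran from 994 over 1092 to 1204 CPM in oxytocin and from 822 over 1093 to 1295 CPM in saline libraries, so that the saline group enclosed the oxytocin group. The log2 fold change was 0.14 (SE 0.07, interval −0.01 to 0.30, adjusted p = 0.498) in titled males and 0.03 (SE 0.07, interval −0.12 to 0.19, adjusted p = 0.904) in titled females.

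**Figure D1:**
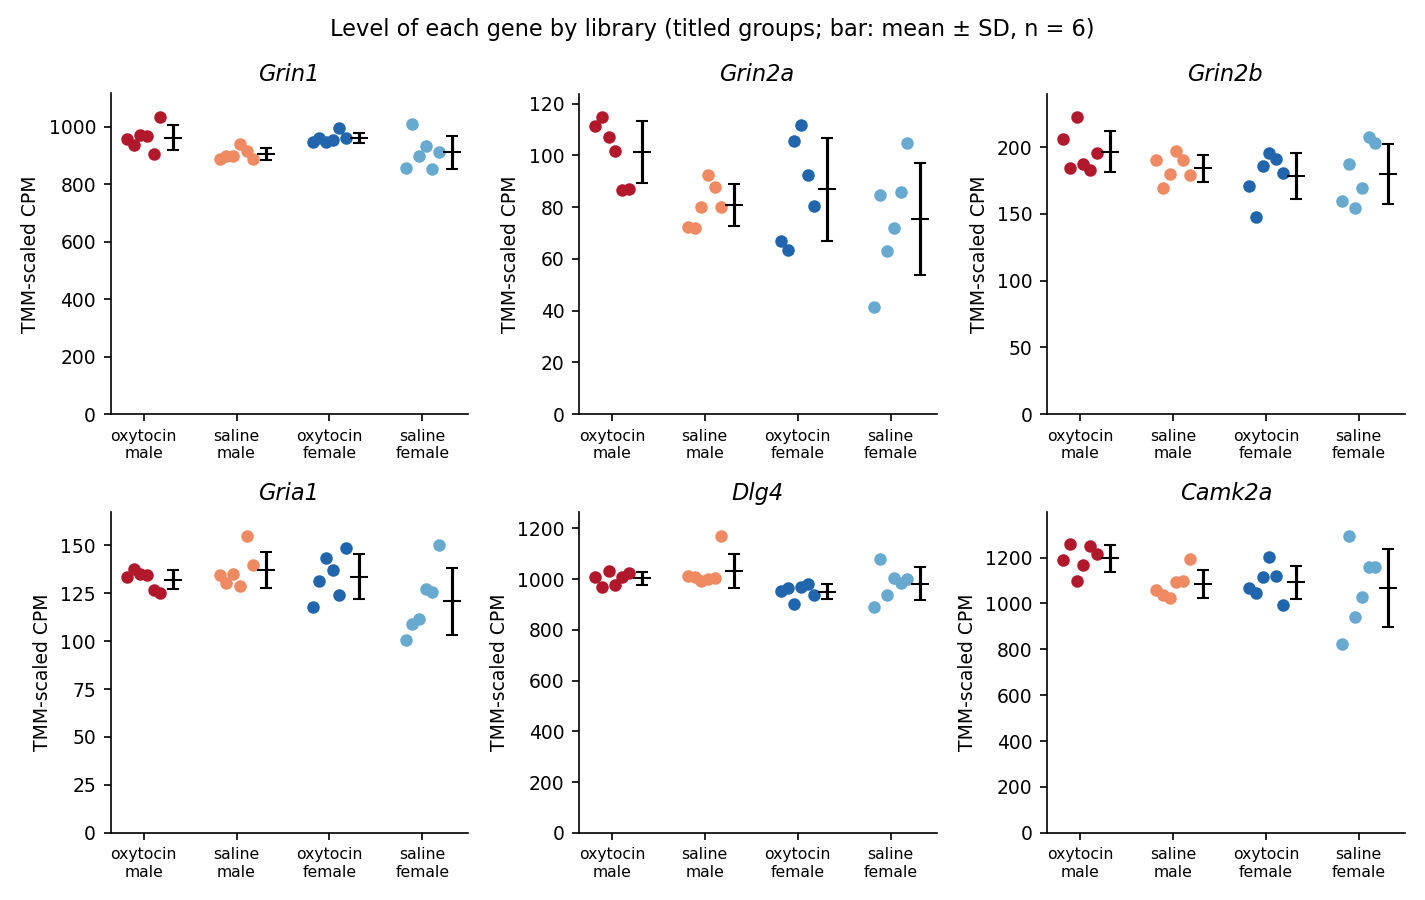
Level of each gene in TMM-scaled CPM (vertical axes, from 0) in the 24 libraries, 1 panel per gene and 1 point per library, with replicate numbers 1 to 6 from left to right in each titled group and the mean ± SD (n = 6) beside the points. Oxytocin and saline libraries of the same titled sex overlap in every gene. Grin2a spreads widest, from 41.6 in saline female 1 to 115 CPM in oxytocin male 2, and Dlg4 has 1 high library, saline male 6 at 1171 CPM.

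Counted over the 6 members, the edgeR test called 0 in titled males, against 0.161% of all tested genes, and 1 member had an unadjusted p under 0.05, against 11.2% of all genes (6.34% with oxytocin higher, as for this member, Grin1). In titled females it called 0 (0.00670% of all genes), with 1 member at an unadjusted p under 0.05 (12.4%, and 6.05% with oxytocin higher, as for this member, again Grin1). On average over the titled sexes it called 0 (0.362%), with 2 members, Grin1 and Grin2a, at an unadjusted p under 0.05 (16.0%, and 8.72% with oxytocin higher, as for both). In the interaction it called 0 of 6, as of all genes (0%), with 0 members at an unadjusted p under 0.05 (7.29%, and 3.71% above 0). Between titled sexes it called 0 (0.228%), with 1 member, Dlg4, at an unadjusted p under 0.05 (9.99%, and 5.17% with titled males higher, as for Dlg4). DESeq2 also called 0 members in each of the 5 comparisons, against 1.24%, 0.253%, 2.68%, 0.00909% and 0.630% of all genes it tested, in the same order. Limma with sample weights called 0 members in each, against 0.851%, 0.00670%, 1.46%, 0% and 0.449%. At an unadjusted p under 0.05 DESeq2 had 2, 1, 2, 0 and 1 members, against 8.02%, 8.82%, 11.4%, 5.39% and 7.18% of all genes. At the same limit limma had 3, 2, 3, 0 and 4 members, against 14.0%, 11.9%, 18.0%, 8.10% and 13.7%. No member had groups without overlap in any comparison, which 1.19% of all genes had in titled males, 0.730% in titled females, 0% over all oxytocin against all saline libraries and 0.0871% between titled sexes.

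The averaged treatment estimate was above 0 for 5 of the 6 members and below 0 for Dlg4, with a median of 0.06 on the log2 scale, against a median of 0.0001 over all tested genes. The titled sexes' own medians were 0.09 and 0.05. Several of these genes varied together, so the count is a description.

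**Figure D2:**
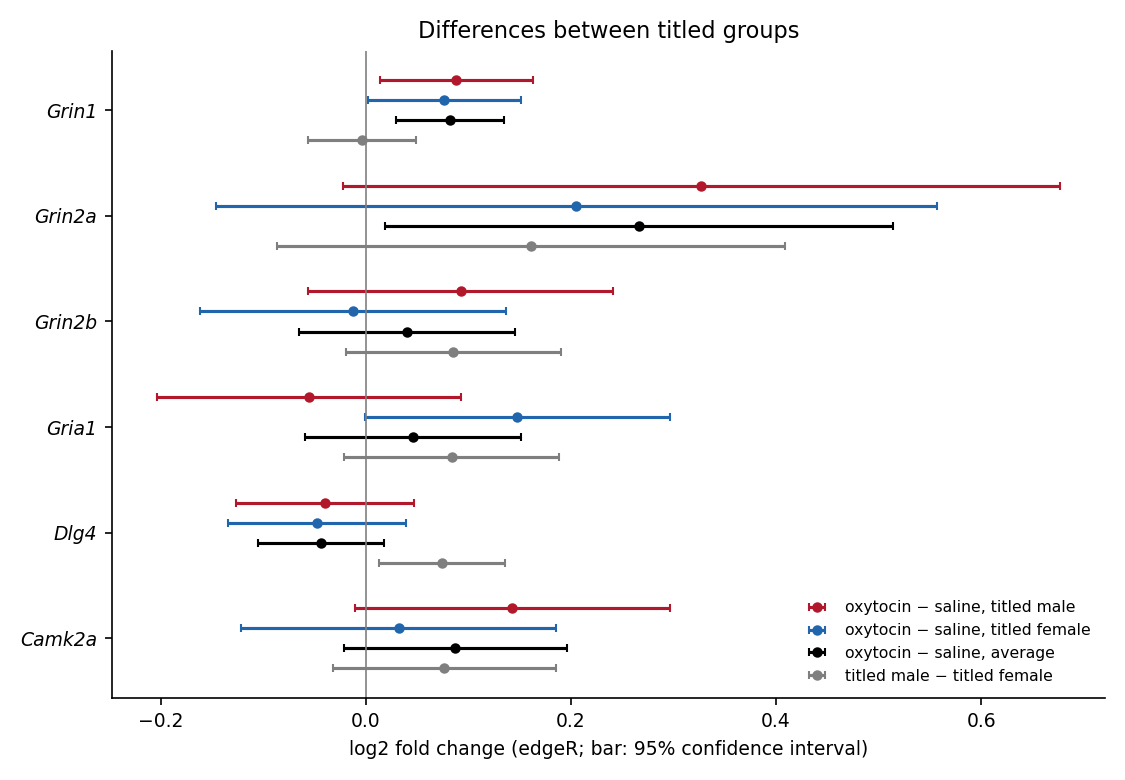
Log2 fold changes (horizontal axis) of the 6 genes from edgeR with their 95% confidence intervals, for oxytocin against saline in titled males, in titled females and on average, and for titled males against titled females. The averaged treatment interval lies above 0 for Grin1 (0.03 to 0.14) and Grin2a (0.02 to 0.51), and the interval between titled sexes for Dlg4 (0.01 to 0.14); none passed the adjusted threshold.

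The balance of the GluN2 subunits was measured within each library as the ratio of Grin2a to Grin2b in reads per effective length, which does not depend on library size. Grin2a was the lower of the pair in 24 of 24 libraries, at 0.326 to 0.784 of Grin2b. The ratio ran from 0.561 over a median of 0.641 to 0.784 in oxytocin male and from 0.478 over 0.559 to 0.588 in saline male libraries. Of the oxytocin male libraries 5 lay above every saline male library, and oxytocin male 6, the lowest, fell into the saline range. In titled females the ratio ran from 0.493 over 0.585 to 0.721 in oxytocin and from 0.326 over 0.528 to 0.651 in saline libraries, with saline female 1 lowest of all 24. Here 2 of 6 oxytocin libraries lay above every saline library and 5 above the saline median.

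In titled males the mean log2 ratio was higher in oxytocin by 0.24 (SE 0.08), or 1.18-fold, which passed the threshold (exact permutation test of 6 against 6 libraries, two-sided p = 0.0130, adjusted p = 0.0260 over the 4 ratio tests; the smallest p this design allows is 0.00216). In titled females it was higher by 0.24 (SE 0.17), or 1.18-fold, and did not pass (two-sided exact permutation test of 6 against 6 libraries, p = 0.171, adjusted p = 0.228). On average over the titled sexes it was higher by 0.24 (SE 0.09; permutation test within titled sexes, two-sided p = 0.00983, adjusted p = 0.0260). The responses of the titled sexes were not shown to differ (difference −0.004; permutation test, two-sided p = 0.986). Titled males exceeded titled females by 0.11 (SE 0.09), which did not pass (permutation test within treatments, two-sided p = 0.266, adjusted p = 0.266). Adjustment for the ratio covers 4 tests alone, while Grin2a and Grin2b were each adjusted over 14930 genes and neither was called. Ratios of other gene pairs were not tested, so no share over them stands beside these calls. As a description, the ratio of Dlg4 to Grin1 averaged 1.51 in oxytocin male and 1.64 in saline male libraries. For titled females these means were 1.43 in oxytocin and 1.55 in saline libraries.

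Leaving out single libraries changed part of this. Without saline female 1 the difference in titled females was 0.11 (adjusted p = 0.453) and the average 0.18 (adjusted p = 0.0453). The call in titled males ended without saline male 1, 2, 3 or 6 (exact permutation test, adjusted p = 0.0736, 0.0649, 0.0606 and 0.0563). Differences were then 0.198, 0.229, 0.242 and 0.245, against 0.238 with all libraries. Leaving out saline male 3 or 6 thus did not shrink the estimate. The call of the average ended without saline male 1 or 2 (permutation test, adjusted p = 0.0654 and 0.0537), with differences of 0.22 and 0.24. Both calls also ended in a planned setting with the replicate number as a block. Its exact test, flipping signs of same-numbered differences, gave adjusted p = 0.125 in titled males and 0.0586 on average. The labels tie no number to a litter or batch. Within groups the log2 ratio moved with the main axis of variation over all genes, described next (r = 0.64 over 24 libraries). Mean scores on that axis were 0.902 ± 5.55 in oxytocin male, 3.33 ± 8.90 in saline male, −0.752 ± 5.43 in oxytocin female and −3.48 ± 19.4 in saline female libraries (SD, n = 6 each). With the score removed, a setting added once the data were known, the difference was 0.27 in titled males (exact permutation test, adjusted p = 0.00866) and 0.24 on average (permutation test, adjusted p = 0.00866). In the same setting it was 0.21 in titled females (exact permutation test, adjusted p = 0.176) and 0.05 between titled sexes (permutation test, adjusted p = 0.465), neither of which passed.

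**Figure D3:**
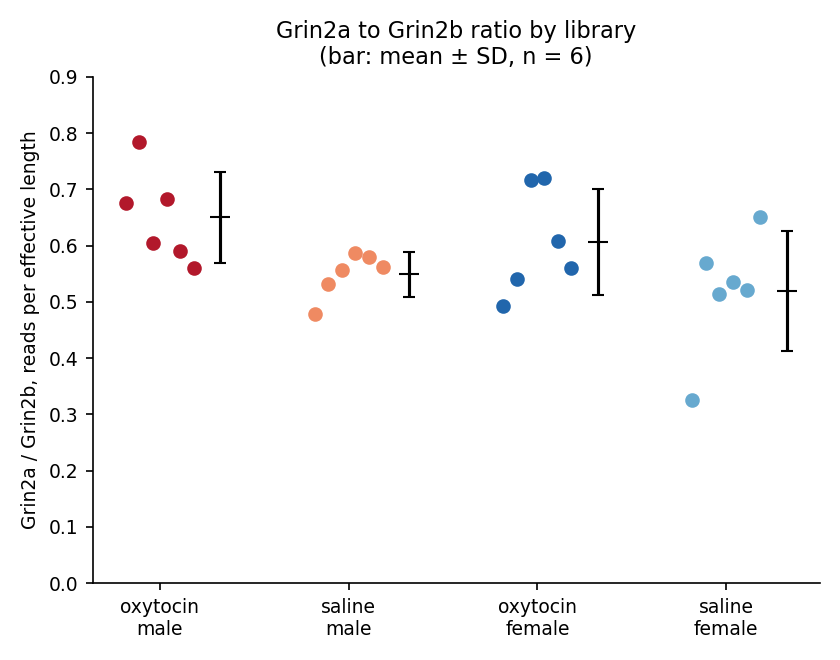
Ratio of Grin2a to Grin2b in reads per effective length (vertical axis, from 0) in each of the 24 libraries, with replicate numbers 1 to 6 from left to right in each titled group and the mean ± SD (n = 6) beside the points. In titled males 5 of 6 oxytocin libraries lie above every saline library; saline female 1 is lowest at 0.326.

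The members differed in how much they varied between libraries of the same group. The within-group SD on the log2 scale was 0.06 for Grin1, 0.07 for Dlg4, 0.13 for Grin2b and for Gria1, 0.14 for Camk2a and 0.31 for Grin2a. Among the 3949 tested genes with a mean of at least 50 CPM the median SD was 0.08, and 98.3% of them varied less than Grin2a, while 16.3% varied less than Grin1. Counting error was smaller than this spread: with 817 to 2207 reads per library for Grin2a it came to 3.50% at the lowest and 2.13% at the highest count, against a within-group SD of 23.8%. For Grin1, with 13668 to 24245 reads, it was 0.855% to 0.642%, against 4.15%. The spread of Grin2a was largest in titled females, with a CV of 28.8% in saline and 22.9% in oxytocin libraries, against 10.2% and 11.9% in titled males. In bulk tissue a difference in the number of cells that express a gene cannot be told apart from a difference in RNA per cell.

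Correlation between members was measured within groups, on log2 CPM after subtracting each titled group's mean, over all 24 libraries. Of the 15 pairs, 14 had a positive Pearson r, with a median of 0.35, and 4 passed an adjusted p of 0.05 (permutation within groups, two-sided, adjusted over the 15 pairs). Grin2a and Grin2b, the alternative GluN2 subunits, gave the highest, r = 0.75 (permutation p = 0.000180, adjusted p = 0.00270), with Spearman's rho = 0.76 (permutation p = 0.000260, adjusted p = 0.00390). Their r was 0.73 without the 2 libraries farthest from the median of Grin2a, and it was positive in each group, from 0.32 in oxytocin male to 0.87 in oxytocin female libraries (n = 6 each, as a description). Only 0.0670% of the other tested genes followed Grin2b as closely as Grin2a did, and 3.36% followed Grin2a as closely as Grin2b did. Over all tested genes, the median r with a member ran from −0.02 (Grin2a) to 0.01 (Dlg4). An r of at least 0.5 was reached by 2.24% of them with Dlg4, the smallest share, and by 11.5% with Grin2a, the largest.

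Grin2a and Camk2a gave r = 0.71 (permutation p = 0.00373, adjusted p = 0.0186; rho = 0.64, permutation p = 0.00516, adjusted p = 0.0387). Dlg4 and Camk2a, scaffold and kinase of the postsynaptic density, gave r = 0.68 (permutation p = 0.00211, adjusted p = 0.0158; rho = 0.46, permutation p = 0.0447, adjusted p = 0.140). Grin2a and Gria1 gave r = 0.66 (permutation p = 0.00981, adjusted p = 0.0368; rho = 0.53, permutation p = 0.0276, adjusted p = 0.138). Without the 2 libraries farthest from the median of the first gene these fell to 0.51, 0.50 and 0.41. Of the other tested genes, 4.25% followed Grin2a as closely as Camk2a did, and 0.824% followed Camk2a as closely as Grin2a did. For Dlg4 and Camk2a the shares were 0.208% with Dlg4 and 1.33% with Camk2a. For Grin2a and Gria1 they were larger, 5.94% with Grin2a and 5.004% with Gria1. Grin2a and Gria1 had a positive r in each of the 4 groups. The others did not, and differences between groups were not tested: Grin2a and Camk2a had r = −0.28 in oxytocin male and 0.90 in saline female libraries, and Dlg4 and Camk2a had −0.47 and 0.93. The pairs of Grin1 with the other members ranged from −0.05 with Gria1 to 0.44 with Dlg4, and none passed (lowest adjusted p = 0.184, permutation test). Without saline male 6, however, Grin1 and Dlg4 gave r = 0.66 and passed (adjusted p = 0.0446, permutation test). With deposited TPM, Grin1 and Grin2a gave r = 0.51 and passed (adjusted p = 0.0486, permutation test).

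Single libraries moved the number of pairs that passed, which was 3 or 4 without any 1 library of the other groups and 1 to 4 without 1 saline female library. Grin2a and Gria1 no longer passed without any of 10 libraries: oxytocin male 5 or 6, saline male 5, oxytocin female 1 or 3, and saline female 1, 3, 4, 5 or 6 (adjusted p from 0.0517 to 0.133, permutation test). Dlg4 and Camk2a no longer passed without saline male 6 (adjusted p = 0.0558, permutation test) or saline female 1 or 3. In saline female 1 all 6 members lay below the group mean, Grin2a by −0.80 and Camk2a by −0.36 on the log2 scale, and in saline female 6 all 6 lay above, Grin2a by 0.53. Without saline female 1, 1 of 15 pairs passed, Grin2a and Grin2b (r = 0.76, adjusted p = 0.0045, permutation test). Without saline female 3 it was again that pair alone (r = 0.76, adjusted p = 0.000750, permutation test). Without the 6 saline female libraries, likewise added once the data were known, 0 passed, with r = 0.70 for Grin2a and Grin2b (permutation p = 0.00406, adjusted p = 0.0609) and 0.41, 0.40 and 0.47 for the other 3. The first principal component of the within-group deviations of all tested genes without the members held 8.70% of the variance. It correlated with Gria1 (r = 0.76), Grin2a (0.74), Camk2a and Grin2b (0.62 each) and Dlg4 (0.41), and with Grin1 at −0.10, and saline female 1 had its lowest and saline female 5 its highest value. With that component removed 0 pairs passed, and r was 0.55 for Grin2a and Grin2b (permutation p = 0.0123, adjusted p = 0.0674) and 0.60 for Dlg4 and Camk2a (permutation p = 0.0127, adjusted p = 0.0674). It was 0.48 for Grin2a and Camk2a (permutation test, adjusted p = 0.118) and 0.22 for Grin2a and Gria1 (same test, adjusted p = 0.631). Pairs of Grin1 rose, to 0.51 with Grin2a (same test, adjusted p = 0.0674), 0.53 with Dlg4 (adjusted p = 0.0958) and 0.53 with Camk2a (adjusted p = 0.187).

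**Figure D4:**
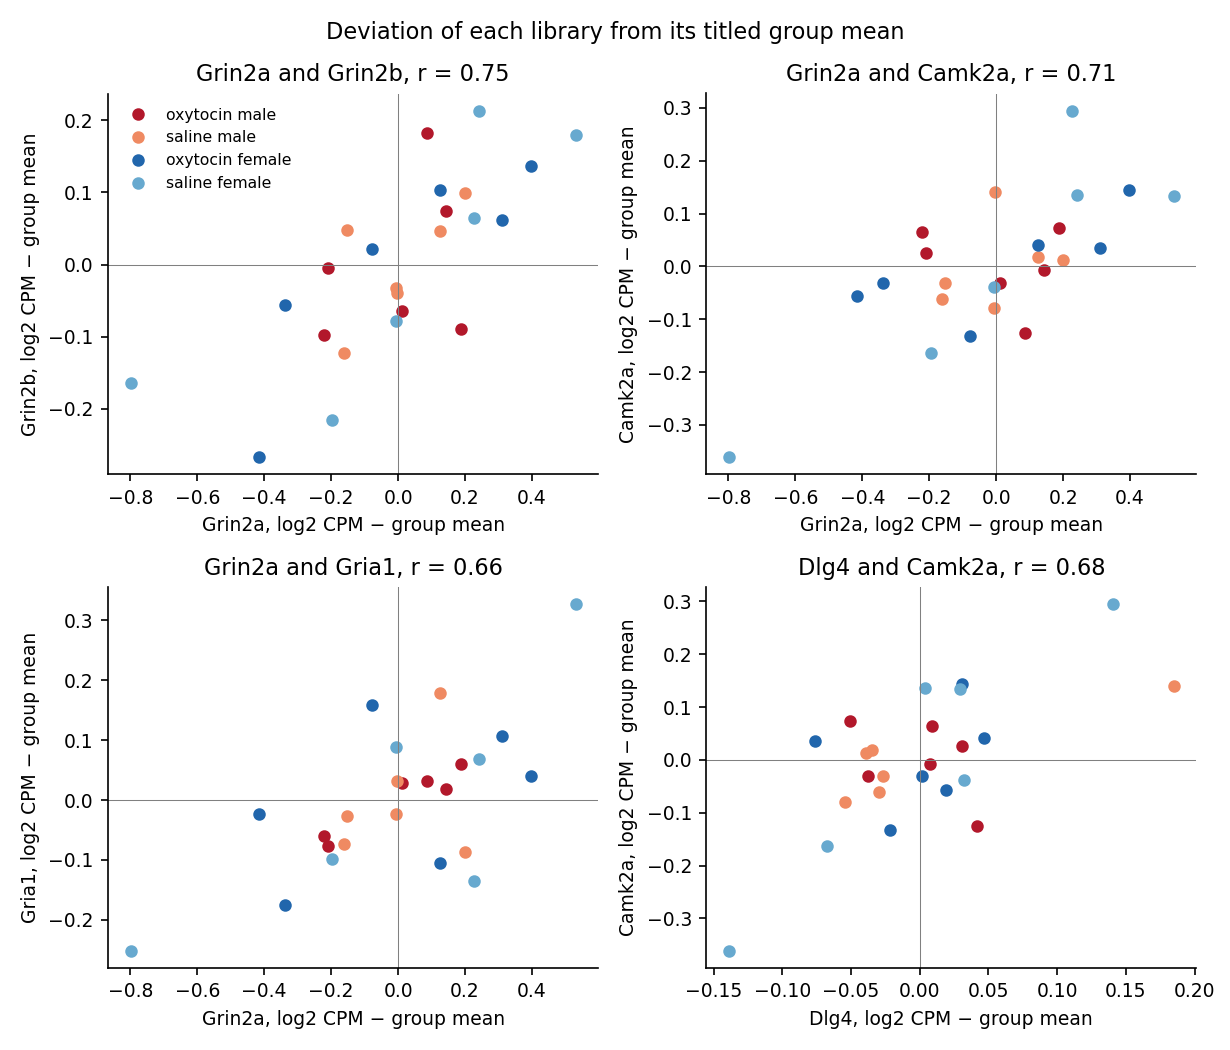
Deviation of each library from its titled group mean in log2 CPM, for the 4 pairs of members past the adjusted threshold (first gene on the horizontal, second gene on the vertical axis; 1 point per library, coloured by group). Grin2a and Grin2b give r = 0.75, Grin2a and Camk2a 0.71, Grin2a and Gria1 0.66, Dlg4 and Camk2a 0.68. The point at the far left of the Grin2a panels, at −0.80, is saline female 1.

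Of all tested genes, those most like a member in these deviations were other genes, named by ID alone. Grin2a was followed most closely by ENSRNOG00000005309 (r = 0.98) and ENSRNOG00000011460 (r = 0.97), over the same 24 libraries. At r of at least 0.8 there were 340 such genes for Grin2a, 142 for Gria1, 23 for Camk2a, 8 for Grin1, 2 for Grin2b and 0 for Dlg4, whose highest r with any gene was 0.77. Among the genes ranked by likeness to Grin2b, Grin2a stood at place 11, and among those like Dlg4, Camk2a stood at place 32, while in the ranking for Grin1 the nearest member, Dlg4, stood at 881. The reverse ranks were lower, with Grin2b at 502 for Grin2a, its nearest member, and Dlg4 at 200 for Camk2a. Grin2a was the nearest member for Camk2a, at 124, and for Gria1, at 748. All ranks are over the same 24 libraries and describe covariation in this set only.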

How the data were processed

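RNA from medial prefrontal cortex was selected with oligo-dT after a limit on RNA integrity, per the labels' protocols. The build Rnor_6.0 and the tools DRAGEN and bcl2fastq are named per the submitters' processing notes. For versions, annotation and strand setting, the entry is: not given in the sources used here. Per the file headers, each library's table holds a length, an effective length, TPM and estimated counts per gene. The estimated counts deposited by the authors were rounded before testing, while the deposited TPM values served for levels per length. Counts were filtered with filterByExpr (minimum count 10, minimum total 15), scaled by TMM (factors 0.971 to 1.03) and fitted with edgeR 4.0.16 (R 4.3.3) as 4 group means over all 24 libraries. Intervals are at 95%. Log2 CPM for correlations used a prior count of 2. Ratio and correlation tests drew 100000 permutations where not exact, and 20000 with 1 library left out. The procedures were tested on simulated data. No pair of libraries in a group agreed within sampling noise (lowest chi-square per degree of freedom 4.92). Alternatives were RLE factors, other filters, length offsets, the replicate number as a block, DESeq2 1.42.0, limma 3.58.1 with voom, TPM, and leaving out each library. All 6 members were named in every comparison, and per member the 2 most alike genes were taken, with at most 2 IDs printed. Lists of 63 further glutamate receptor and postsynaptic genes, and of cell type markers, were not used because 0 could be matched to an ID. The members and lists were chosen with earlier results of these data known.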

Additional observations from a re-analysis of the deposited data

Results flagged for a closer look

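In 28 sets of 6 libraries (6 genes and the Grin2a to Grin2b ratio in 4 groups), 2 had 1 library far from the other 5, against 1.4 by chance at 1 in 20. Dlg4 stood at 1171 CPM in saline male 6, with the next library of that group at 1011 CPM. Grin1 stood at 996 CPM in oxytocin female 5, with the next at 961 CPM.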

How the results depend on the processing

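The count of called members stayed at 0 in all 5 comparisons under RLE factors, no filter, a minimum count of 50, length offsets, DESeq2, limma and the replicate number as a block, and in the 2 comparisons within a titled sex when only its libraries were fitted; with 1 library left out it was 0 to 1 for the averaged treatment (Grin1 without saline female 2) and 0 otherwise. Of 222 member fold changes under the former settings 221 kept direction and call; Grin2b in titled females turned to 0.013 in limma. With 1 library left out 702 of 720 did so and 17 reversed, where the value over all libraries was at most 0.03 on the log2 scale: Grin1 between titled sexes (−0.014 to 0.012) and in the interaction (−0.019 to 0.030), Dlg4 in the interaction (−0.022 to 0.047), Grin2b (−0.053 to 0.037) and Camk2a (−0.033 to 0.095) in titled females. Same-numbered libraries of different groups correlated at −0.110 to 0.175, over 0.1 in 3 of 36 pairs (mean 0.0269, against −0.0054 between different numbers). The labels tie no number to a litter or batch and not every pair was over 0.1, and the numbers were therefore not taken as pairs; 10 of 24 libraries were nearest to their own number, a hint from the data and not the design. Under the replicate block the ratio differed by 0.24 in titled males (exact sign-flip test, adjusted p = 0.125) and by 0.24 on average (same test, adjusted p = 0.0586), both past no threshold. That test flips the signs of same-numbered differences and has fewer arrangements in titled males than the main test. Under the same block 2 member pairs passed. With 1 library left out the ratio differed by 0.18 to 0.28 in titled males, 0.11 to 0.31 in titled females, 0.18 to 0.28 on average and 0.04 to 0.14 between titled sexes. The number of correlated pairs, 4, was 8 with deposited TPM, 2 with Spearman's rho, 0 with the first principal component removed, 0 with no saline female libraries, and 1 to 4 with 1 library left out. Pairs added with TPM were Grin1 and Grin2a, Grin2a and Dlg4, Grin2b and Gria1, and Grin2b and Camk2a. Reversed were Grin1 and Gria1 (0.34 with TPM, 0.032 without TMM, 0.037 with the component removed; −0.26 to 0.14 with 1 library left out), Gria1 and Dlg4 (−0.12 with the block, −0.34 with the component removed, −0.16 with no saline female libraries; −0.14 to 0.27 with 1 library left out), Grin2b and Gria1 (−0.082) and Gria1 and Camk2a (−0.32) with the component removed, Gria1 and Camk2a (−0.016), Grin1 and Camk2a (−0.15) and Grin2a and Dlg4 (−0.14) with no saline female libraries, and Grin1 and Camk2a in rho (−0.013). Over all genes, in the order titled males, titled females, average, interaction and titled sexes, edgeR called 24, 1, 54, 0 and 34, DESeq2 160, 42, 356, 2 and 102, and limma 127, 1, 218, 0 and 67; edgeR under the replicate block called 9, 1, 57, 1 and 37. Fitted on the libraries of 1 titled sex alone it called 116 in titled males and 0 in titled females, and with 1 library left out 0 to 106, 1 to 6, 9 to 334, 0 to 0 and 29 to 60. The causes were not tested. Depth limits none of the levels, since each member had at least 817 reads in every library.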
